A study of Mus musculus with 4 samples.

Results

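The DLX, MSX and PRRX homeobox genes were followed in mouse primary osteoblasts treated with BMP2, LOXL2 or both. The 9 genes were Dlx1, Dlx2, Dlx3, Dlx5, Dlx6, Msx1, Msx2, Prrx1 and Prrx2, found by the gene name that the array files print beside each probe that is not a control. They had 11 probes of the 55681 on the array, 2 each for Dlx1 and Prrx1 and 1 for each of the other genes. Primary osteoblasts were cultured in 10% serum for 72 h with 200 ng/ml BMP2 and 4 µg/ml LOXL2, with BMP2 alone, with LOXL2 alone, or with neither protein (untreated). BMP2 is a bone morphogenetic protein that drives bone and cartilage formation, and LOXL2 belongs to the lysyl oxidases, secreted enzymes that cross-link matrix proteins. The labels call the cells without BMP2 pre-osteoblasts and those with it osteoblasts. Each treatment was measured on 1 single-colour Agilent array, so no treatment was replicated, and whether each culture was a separate preparation of cells is not given in the labels. The 4 arrays lay on 1 slide, so the effect of a position on it and that of a treatment cannot be told apart.

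DLX proteins are homeodomain transcription factors related to Distal-less of Drosophila. They bind short AT-rich sites with a TAATT core, and their genes lie in neighbouring pairs that share enhancers, among them Dlx1 with Dlx2 and Dlx5 with Dlx6. DLX5 acts in the BMP response of osteoblasts and can activate Sp7, Runx2 and bone matrix genes. MSX1 and MSX2 bind similar sites, mostly as repressors, and can oppose DLX proteins. PRRX1 and PRRX2 are paired-related factors of the limb bud and of craniofacial mesenchyme, and PRRX1 marks skeletal progenitors.

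The members lie at 7 loci, and the probes are placed here on mm9, the build in the file headers. The Dlx5 probe lies at chr6:6828063-6828122 and that of Dlx6 at chr6:6815092-6815151, within the same gene pair. The Dlx2 probe lies at chr2:71381553-71381612, beside the Dlx1 probes at chr2:71371499-71371558 and chr2:71367411-71367470. The Dlx3 probe lies at chr11:94986262-94986357, that of Msx1 at chr5:38212305-38212364 and that of Msx2 at chr13:53562318-53562377. The Prrx1 probes lie at chr1:165175375-165175434 and chr1:165185408-165185467 and carry different RefSeq transcript variants of the gene. The Prrx2 probe lies at chr2:30736678-30736737. The array's descriptions assign 10 of these probes to a RefSeq mRNA and 1, the second of Dlx1, to an Ensembl transcript.

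The start regions of 6 of the 9 genes were found in the RefSeq promoter table of GRCm38.p6, those of Dlx1, Dlx2, Msx1, Msx2, Prrx1 and Prrx2. The 250 bases upstream of the start are shown for Dlx2, Msx2 and Prrx1, whose windows held the motifs marked here. In the fit given below Dlx2 was called higher with BMP2 and Prrx1 lower, while Msx2 was lower without passing the test. Capitals mark every match, on either strand, to 6 motifs. These were TAATTA and TAATTG (homeodomain cores), GGCGCC (a GC-rich SMAD motif), GTCTAGAC (the palindromic SMAD box), TGACGTCA (a cyclic AMP response element) and CACGTG (an E-box). No marked matches overlap. The Dlx2 window is chr2:71546755-71547004, the Msx2 window chr13:53472781-53473030 and the Prrx1 window chr1:163313651-163313900, all on the minus strand of GRCm38.p6.
Dlx2: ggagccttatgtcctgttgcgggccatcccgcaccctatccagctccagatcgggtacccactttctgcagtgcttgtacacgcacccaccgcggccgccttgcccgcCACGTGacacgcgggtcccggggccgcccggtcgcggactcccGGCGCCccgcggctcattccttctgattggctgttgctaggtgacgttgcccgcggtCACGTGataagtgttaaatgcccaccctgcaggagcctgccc
Msx2: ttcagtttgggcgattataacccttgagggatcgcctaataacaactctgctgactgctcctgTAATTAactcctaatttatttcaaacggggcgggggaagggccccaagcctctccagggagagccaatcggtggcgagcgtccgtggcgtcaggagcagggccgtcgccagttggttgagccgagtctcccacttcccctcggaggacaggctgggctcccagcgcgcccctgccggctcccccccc
Prrx1: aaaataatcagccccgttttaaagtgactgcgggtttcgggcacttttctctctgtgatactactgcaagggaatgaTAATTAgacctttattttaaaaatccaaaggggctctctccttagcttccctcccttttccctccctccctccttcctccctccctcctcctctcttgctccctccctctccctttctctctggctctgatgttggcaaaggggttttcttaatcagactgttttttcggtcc
Dlx2 held GGCGCC 99 bases and CACGTG 142 and 42 bases before the start. Msx2 held TAATTA 187 bases before its start and Prrx1 held it 173 bases before. The windows of Dlx1, Msx1 and Prrx2 held none of the 6 motifs. Among them Msx1 was also lower with BMP2 without passing the test. Whether a motif goes with a change was not tested. Over all 32851 windows of the table, 4.84% held TAATTA, 7.17% TAATTG, 9.59% GGCGCC, 6.02% CACGTG, 1.55% TGACGTCA and 0.167% GTCTAGAC. A match is a run of letters and not a measured site. The GC content of the Prrx1 window was 47.6%, that of the Msx2 window 61.6% and that of the other 4 windows 66.4% to 70%, against a median of 52.4% over all windows.

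Markers of osteoblasts and of other cell types were read on the same arrays. Of 12 osteoblast markers 11 were measured, among them Runx2, Sp7, Alpl, Ibsp and Col1a1. Dmp1, a gene of late osteoblasts and osteocytes, was not measured above background on 2 or more arrays. Of these 11, Alpl, Sp7, Ibsp, Bglap and Bglap2 rose and 0 fell in limma, with a median change of 0.77 on the log2 scale. The summed intensity of the osteoblast markers, which pools genes of very unequal brightness, was 1344740 with BMP2, against 1289420 untreated, and 1333400 with both proteins, against 1369250 with LOXL2. All 12 chondrocyte markers rose with BMP2, with a summed intensity of 192774 with BMP2, against 40682 untreated, and 304817 with both proteins, against 48188 with LOXL2. Of 8 tendon and fibroblast markers Pdgfrb rose and 5 fell (Tnmd, Mkx, Dpt, Cd34 and Pdgfra), with summed intensities of 76877 and 75100 with BMP2, without and with LOXL2, against 81985 untreated and 86235 with LOXL2. Of 11 measured macrophage and leukocyte markers 3 fell (Lyz2, Aif1 and Mrc1) and 0 rose in limma, with summed intensities of 24273 and 23686 with BMP2, against 27904 and 29625 without it. Of 5 measured skeletal muscle markers Acta1 fell, and the summed intensity was 7604 with BMP2, against 16737 untreated, and 7367 with both proteins, against 16225 with LOXL2. Of 6 measured endothelial markers Vwf rose and Cdh5 and Pecam1 fell, with sums of 22754 and 22232 with BMP2, against 22587 and 22336 without it. Of 7 measured nerve and glia markers Tubb3 and Gfap rose and Mbp fell, with sums of 19482 and 18609.8 with BMP2, against 22478 and 23802 without it. Of 6 measured adipocyte markers 0 were called in limma, with sums of 9214 and 9331 with BMP2, against 8368 and 8383 without it. All sums are of intensities not scaled between arrays, whose 75th percentiles ran from 711 to 743. Small differences between sums, such as those of the endothelial and osteoblast markers, are thus not to be read as changes. In these bulk samples fewer cells of a type and less RNA per cell cannot be told apart, and what the shifts in cell markers contribute to the values below was not tested. Across the arrays 60.4% to 62.2% of spots were well above background.

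With BMP2, Dlx5 and Dlx2 rose more than 2-fold, Prrx1 fell by 0.40 on the log2 scale, and the fitted changes of Dlx6, Dlx3, Msx1, Msx2 and Prrx2 did not pass the test. The effect of a protein was fitted over all 4 arrays, as the log2 change between 2 arrays with the protein and 2 without it, in an additive limma model. Benjamini-Hochberg adjustment of the p-values ran over 24041 genes, and genes under 0.05 were called. Of the 9 genes 8 entered the fit, all above background on all 4 arrays, while Dlx1 was too dim. Of these 8, 2 were called higher and 1 lower. Among all genes tested 10.3% were called higher and 9.97% lower, 20.3% in all, so a few calls among 8 genes would be usual here. The median change of the 8 genes was -0.10, against 0.02 over all genes, and the median size of the change without its sign was 0.35, against 0.21. Error margins of the fitted values are standard errors from 1 residual degree of freedom and the 1.72 that the empirical Bayes step added. That residual is the gap between the BMP2 differences under and without LOXL2. The margins, intervals and p-values thus assume additive effects and do not measure spread between cultures.

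**Figure D1:**
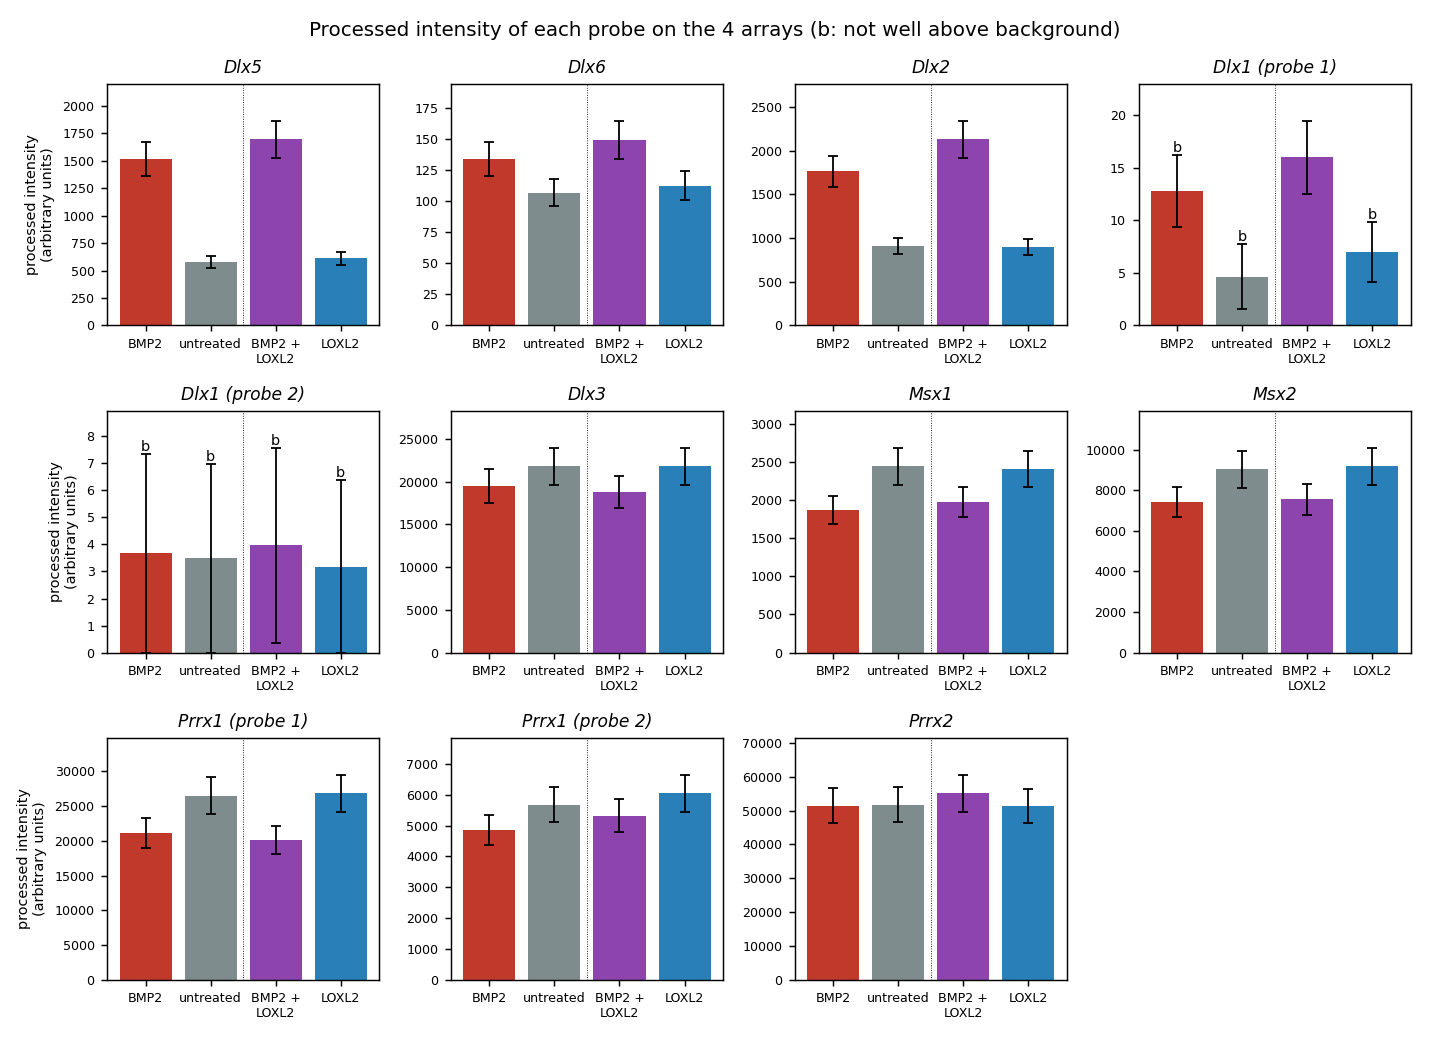
Processed intensity (vertical axes, arbitrary units, linear from 0) of each of the 11 probes on the 4 arrays, with BMP2 beside untreated and both proteins beside LOXL2. Error bars are the scanner software's error of a single spot, mostly a preset 10% of the intensity and ending at 0 where longer than the bar, b marks a spot not well above background, and for Dlx5 the BMP2 arrays stand at 1517 and 1697 against 577 and 610.0.

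Dlx5, which activates bone matrix genes downstream of BMP signalling, changed most among the members. Its processed intensity was 1517 with BMP2, against 577 untreated, and 1697 with both proteins, against 610.0 with LOXL2. Both arrays with BMP2 lay far above both without it. The groups did not overlap, which in either direction was true of 70.9% of all genes. The error that the scanner software attaches to a spot is almost wholly a proportional term preset at 10% in the file headers, so it is no measure of spread between cultures. The fitted rise of Dlx5 was 1.40 ± 0.06 (log2 change ± SE, limma adjusted p = 0.0206), a 2.64-fold difference, with a 95% interval of 1.21 to 1.59. Only 3.33% of all genes had a fitted change as large in either direction. The smallest adjusted p of the whole table was 0.0206, so this p does not order Dlx5 among the strongest genes.

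Dlx6 is the neighbour of Dlx5 and encodes a DLX factor with an overlapping role in the embryonic skeleton. Its intensity was 134 with BMP2, against 106.9 untreated, and 149.5 with both proteins, against 112 with LOXL2. The arrays with BMP2 were the higher ones in both pairs, by less than for Dlx5. The fitted change of 0.34 ± 0.06 missed the threshold (limma adjusted p = 0.0554), and its 95% interval of 0.14 to 0.53 lay wholly below that of Dlx5. Over all genes 31.0% had a fitted change as large.

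The Dlx6 probe is shown because antisense transcripts are annotated across this gene. It spans 60 bases of mm9, chr6:6815092-6815151, on the plus strand, and starts at base 508 of the transcript. Its first frame has 20 codons with 0 stops.
Dlx6 probe: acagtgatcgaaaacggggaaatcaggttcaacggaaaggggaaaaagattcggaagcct
RefSeq names the antisense transcript in the Dlx6 gene Dlx6os2 (Dlx6as on the array). Its probe gave 412 with BMP2, against 481 untreated, and 429.8 with both proteins, against 498 with LOXL2. It was thus lower with BMP2 in both pairs, where Dlx6 was higher. The fitted change of Dlx6os2 was -0.25 ± 0.05 and missed the threshold (limma adjusted p = 0.0706). The Dlx6os1 transcript, known for its role at the Dlx5 and Dlx6 enhancers in the forebrain, was not well above background on any of the 4 arrays, nor was Dlx1as, the antisense transcript of Dlx1.

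Dlx2 acts in the branchial arches and forebrain and overlaps in function with Dlx1. Its intensity was 1766 with BMP2, against 911 untreated, and 2133 with both proteins, against 896 with LOXL2. Both BMP2 arrays stood above both others, as either above or below in 70.9% of all genes, and the array with both proteins was the highest. The fitted rise was 1.07 ± 0.10 (limma adjusted p = 0.0311), a 2.10-fold difference, with a 95% interval of 0.73 to 1.41. The difference was 2.32-fold under LOXL2 and 1.90-fold without LOXL2, so only Dlx5 of the 8 genes was past 2-fold in both pairs.

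Dlx1, the neighbour of Dlx2, was near the detection limit. Its first probe gave 12.8 with BMP2, against 4.64 untreated, and 16.0 with both proteins, against 7.01 with LOXL2. Of these values only that with both proteins was well above background, and the lowest intensity above background was 12.9 to 14.6 across the arrays. Set against the limit of 12.9 on the LOXL2 array, Dlx1 read at least 1.21-fold higher with both proteins than with LOXL2, with no test. The scanner error of the spot with both proteins was 3.48, so this is no firm bound. The second probe was not well above background on any array, and on 3 of them its value is a surrogate that the software set in place of the signal, with 3.67 with BMP2, against 3.48 untreated, and 3.96 with both proteins, against 3.18 with LOXL2. Its 60 bases match the RefSeq start region from 91 to 32 bases before the Dlx1 start, so it lies upstream of the RefSeq start.

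Dlx3, a factor of osteoblasts, hair and teeth that regulates bone matrix genes, was lower with BMP2 by a small margin. Its intensity was 19482 with BMP2, against 21791 untreated, and 18823 with both proteins, against 21793 with LOXL2. The groups did not overlap, as in 70.9% of all genes, and the gap was the smallest among the 7 members whose groups were apart. The fitted change of -0.22 ± 0.05 missed the threshold (limma adjusted p = 0.0906), with an interval of -0.41 to -0.03. Dlx3 was called lower with normexp background correction and with trend and robust variance (limma adjusted p = 0.0252 and 0.00148). These settings called 9086 and 10389 of all genes. Its cluster neighbour Dlx4, not counted among the members, had a fitted change of -0.36 ± 0.17 (limma adjusted p = 0.228) at intensities of 22.7 and 26.9 with BMP2, against 34.3 and 27.9 without it.

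The repressors Msx1 and Msx2 were both lower with BMP2 without passing the test. Msx1 acts in dental and palatal mesenchyme, and its intensity was 1868 with BMP2, against 2439.7 untreated, and 1977 with both proteins, against 2403 with LOXL2. Msx2 acts in skull growth and is a known early BMP target in other settings. Its intensity was 7408 with BMP2, against 9021 untreated, and 7553 with both proteins, against 9177 with LOXL2. For both genes each array with BMP2 lay below each array without it, a split in either direction found in 70.9% of all genes. The fitted change was -0.37 ± 0.06 for Msx1 (limma adjusted p = 0.0524, interval -0.57 to -0.17) and -0.32 ± 0.05 for Msx2 (limma adjusted p = 0.0533, interval -0.49 to -0.14). Both intervals lay below 0, while the adjusted p stood just above the threshold. With the filter set to probes above background on all 4 arrays, 6386 of 22617 genes were called. Both were among them, at an adjusted p = 0.0364 for Msx1 and an adjusted p = 0.0379 for Msx2 in limma. Both were also called with normexp background correction and with trend and robust variance, and Msx2 with quantile normalization. Neither was called with median centring (limma adjusted p = 0.0543 and 0.0558), the mean of probes (limma adjusted p = 0.0578 and 0.0586) or no filter (limma adjusted p = 0.140 and 0.144).

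Prrx1, the progenitor factor, was the member called lower, close to the threshold. Its first probe gave 21138 with BMP2, against 26479 untreated, and 20153 with both proteins, against 26811 with LOXL2. The fitted fall was -0.40 ± 0.06 (limma adjusted p = 0.0477), a 1.32-fold difference, and 24.7% of genes had a change as large in either direction. The second probe, on another transcript variant, gave 4860 with BMP2, against 5667 untreated, and 5319.9 with both proteins, against 6038 with LOXL2. Both probes were lower on both BMP2 arrays. With every probe fitted as its own feature, where 11.9% of features were called, the changes were -0.40 for the first probe (limma adjusted p = 0.0618) and -0.24 for the second (limma adjusted p = 0.101). Averaging the probes gave -0.32 (limma adjusted p = 0.0592), so Prrx1 was called in neither of these fits.

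Prrx2, a paralog with overlapping functions in the limb, did not differ in a fixed direction. Its intensity was 51472 with BMP2, against 51750.0 untreated, and 55048 with both proteins, against 51377 with LOXL2. The fitted change was 0.01 ± 0.06 (limma adjusted p = 0.896), with an interval of -0.19 to 0.22. Quantile normalization turned its sign, with -0.15.

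**Figure D2:**
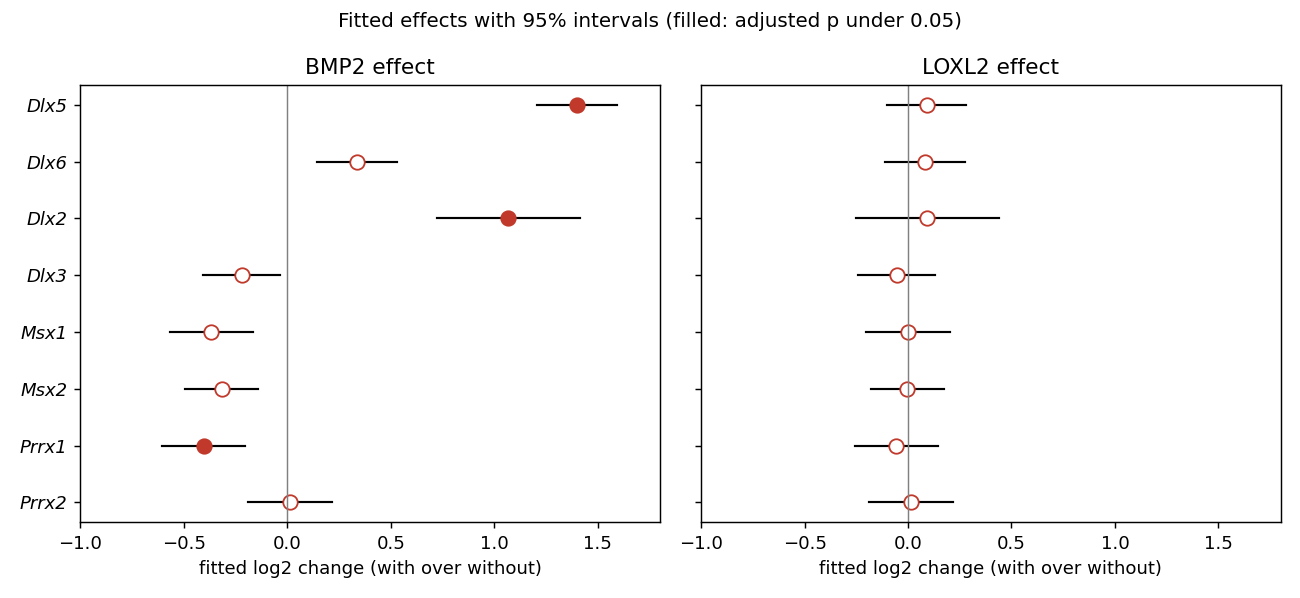
Fitted log2 change (horizontal axes) with BMP2 over without it (left) and with LOXL2 over without it (right) for the 8 members measured, with 95% intervals as lines. Filled points have an adjusted p under 0.05 in limma: Dlx5 at 1.40, Dlx2 at 1.07 and Prrx1 at -0.40 for BMP2, and 0 genes for LOXL2.

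The BMP2 difference could be taken in separate pairs of arrays that share no array, one under LOXL2 and one without it. Neither has a test. On the log2 scale Dlx5 differed by 1.44 under LOXL2 and 1.36 without it. In the same order Prrx1 differed by -0.45 and -0.35, Msx2 by -0.32 and -0.31, Msx1 by -0.32 and -0.41, Dlx6 by 0.38 and 0.30, and Dlx3 by -0.25 and -0.19. In 7 of the 8 genes the sign was the same in both pairs, which was true of 79.4% of all genes. In 7 of the 8 both arrays with BMP2 lay on 1 side of both arrays without it, against 70.9% of all genes, so neither count sets the members apart. Between the pairs the difference moved most for Dlx2, by 0.29, and 19.6% of genes moved by as much or more. For Msx2 it moved by less than 0.01, at -0.0046. At least 2-fold differences were found under LOXL2 for 2.86% of genes upward and 3.84% downward, and without LOXL2 for 2.97% upward and 3.77% downward.

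**Figure D3:**
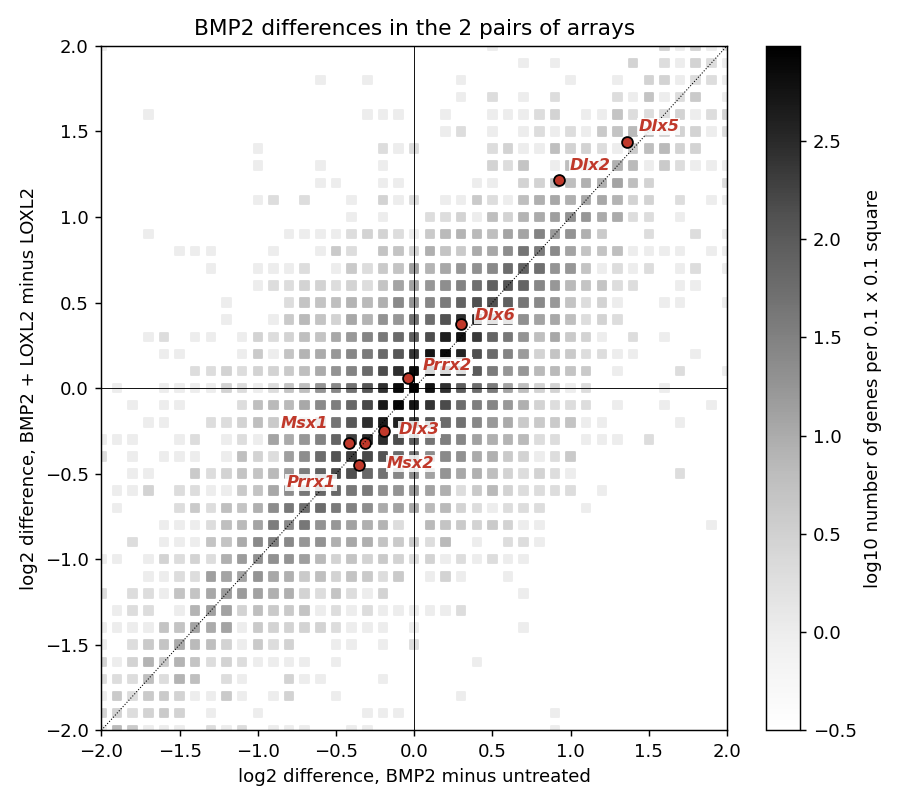
Log2 difference of BMP2 minus untreated (horizontal axis) against that of both proteins minus LOXL2 (vertical axis) for the 8 members as labelled points. Grey squares are shaded by the log10 number of genes, and genes with differences beyond the range of the axes are not drawn. Dlx5 lies at 1.36 and 1.44 and Dlx2 at 0.92 and 1.21, Msx1, Msx2, Prrx1 and Dlx3 lie together at the lower left, and the dotted line marks equal differences.

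For LOXL2, 0 of the 8 members were called in limma, and 0 at an unadjusted p under 0.05. Over all genes 0 of 24041 were called (a background of 0%), with 1485 genes, 6.18%, at an unadjusted p under 0.05. The fitted LOXL2 changes of the members ran from -0.06 for Prrx1 to 0.09 for Dlx2. The 95% interval was -0.10 to 0.28 for Dlx5, -0.11 to 0.28 for Dlx6, -0.25 to 0.44 for Dlx2, -0.18 to 0.17 for Msx2 and -0.20 to 0.20 for Msx1. These intervals hold only within the additive model and do not show that LOXL2 leaves the genes alike. The median size of the LOXL2 change without its sign was 0.0555 for the members and 0.0650 over all genes, on the log2 scale.

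The members were also set beside one another by their profile, as the Euclidean distance between log2 values centred over the 4 arrays. The values were not scaled to a common spread, so a distance reflects the size of a change as well as its direction. Msx1 and Msx2 were 0.07 apart, Msx2 and Prrx1 0.11, Msx2 and Dlx3 0.11, and Dlx2 and Dlx5 0.35. Dlx5 and its neighbour Dlx6 were 1.065 apart, though both were higher with BMP2 in both pairs of arrays. Of 15387 named genes above background on every array, those nearest to Dlx5 were Gda, a guanine deaminase, at 0.03, Sned1, a matrix protein, at 0.07, and Mgll, a monoacylglycerol lipase, at 0.07, and 9 genes lay within 0.1. Nearest to Prrx1 were Ccnd1, cyclin D1, at 0.01, Ksr1, a scaffold of the MAP kinase path, at 0.01, and Rad54b, a DNA repair factor, at 0.02, among 321 genes within 0.1. With 4 arrays such distances are a description only.

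Of 14 nearest protein-coding neighbours in the RefSeq order that are not members, 11 were measured, and 1 rose and 1 fell in limma, near the 10.3% higher and 9.97% lower over all genes. Metap1d, beside Dlx1, rose by 0.55 on the log2 scale and Itga3, beside Dlx3, fell by 0.78 (limma adjusted p = 0.0432 and 0.0446), both named after their values were seen. Sdhaf3 and Sem1, which flank the Dlx5 and Dlx6 pair, had fitted changes of 0.23 and 0.15, and were also named afterwards (limma adjusted p = 0.0872 and 0.144).

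The array's descriptions name a homeobox in 179 other genes, of which 103 were measured, with 9 higher (8.74%), 18 lower (17.5%) and a median change of -0.12. Over all genes tested 10.3% were called higher and 9.97% lower. Lhx2, a LIM homeobox gene, was well above background only on the 2 arrays with BMP2, at 28.3 with BMP2, against 8.54 untreated, and 22.8 with both proteins, against 8.74 with LOXL2. Set against the lowest intensity above background, it read at least 1.86-fold higher with BMP2, with no test. The spots are dim, so this is no firm bound. Lhx2 is counted among the 9 higher, but it passed the filter only through those arrays, so its p-value is left out. Of 17 measured HOX cluster genes 0 rose and 2 fell in limma, Hoxa2 by 1.10 and Hoxd4 by 0.69, and these 11.8% lower lie near the share over all genes. In a narrower list of partner and mesenchymal homeobox genes, 29 of 30 were measured, 4 rose and 8 fell, with a median of -0.15. Here and for the lists below, sizes are fitted changes on the log2 scale. Tgif1, a repressor in TGF-beta signalling, rose by 0.77, and the Iroquois genes Irx3 and Irx5 by 0.62 and 0.45. The mesoderm genes Meox2 and Meox1 fell by 1.21 and 1.11, and Gsc of the craniofacial mesenchyme by 1.21. The adjusted p of these 6 genes was 0.0206 to 0.0432 in limma. Alx4, of craniofacial mesenchyme, differed by 0.03 (limma adjusted p = 0.811).

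Genes that DLX5, DLX3, MSX2 or RUNX2 bind or regulate in bone and tooth rose more often than they fell. Of 20 listed 19 were measured, 8 rose and 1 fell, and the median was 0.26, against 0.02 over all genes, of which 10.3% were called higher and 9.97% lower. The list was chosen with earlier results of these data known, so these shares are a description only. Alpl, Sp7, Ibsp, Bglap and Bglap2 among the 8 are also the osteoblast markers given above as rising. The osteocalcin genes Bglap and Bglap2, near-identical in sequence, rose by 3.60 and 3.47, the growth factor receptor Fgfr3 by 3.40 and the osteoblast factor Sp7, a target of DLX5, by 2.23. Col10a1, a collagen of hypertrophic cartilage below background on the untreated array, differed by 8.95 between the array with both proteins and that with LOXL2. The proteoglycan Ogn fell by 0.76. Runx2 differed by 0.08 (limma adjusted p = 0.366). The chondrocyte markers, which shifted with BMP2 as given above, include Col10a1, and Fgfr3 is expressed by chondrocytes too.

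A list of BMP signal path genes held targets and inhibitors of the path as well as its ligands, receptors and effectors. Of its 25 genes 24 were measured, 5 rose and 4 fell, and the median was 0.13, beside the 10.3% higher and 9.97% lower over all genes. The antagonist Grem1 rose by 2.71, the BMP effector Smad9 by 1.21, the inhibitory Smad6 by 1.08 and the early target Id1 by 0.78. The ligands Bmp4 and Bmp7 fell by 2.46 and 0.94, Id4 by 0.86 and the receptor Bmpr1b by 0.68. Among helix-loop-helix factors and repressors that partner with the members, 15 of 17 were measured, 2 rose and 3 fell, beside the same shares over all genes. Hdac4, a deacetylase that restrains Runx2, rose by 0.77 and the repressor Snai2 by 0.68. Ndn and Maged1, of the MAGE family known to bind DLX or MSX proteins, fell by 0.86 and 0.40, and Twist1, which restrains osteoblast maturation, by 0.50.

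Genes of limb, craniofacial and dental mesenchyme that lie downstream of or beside MSX and PRRX fell more often. Of 25 listed 22 were measured, 6 rose and 11 fell, and the median was -0.45, against 10.3% higher, 9.97% lower and a median of 0.02 over all genes. The odd-skipped factors Osr1 and Osr2 fell by 1.91 and 1.78, and the growth factor Tgfb3 by 1.11. Bmp4, a partner of Msx1 in tooth and palate, fell by 2.46 and stands in both lists. The hedgehog targets Gli1 and Ptch1 rose by 5.55 and 2.85, the T-box repressor Tbx2 by 0.77 and the cell cycle inhibitor Cdkn1a by 0.73. Beside these values 5 of 8 tendon and fibroblast markers fell. This list too was chosen with earlier results of these data known, so its shares are a description only.

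**Figure D4:**
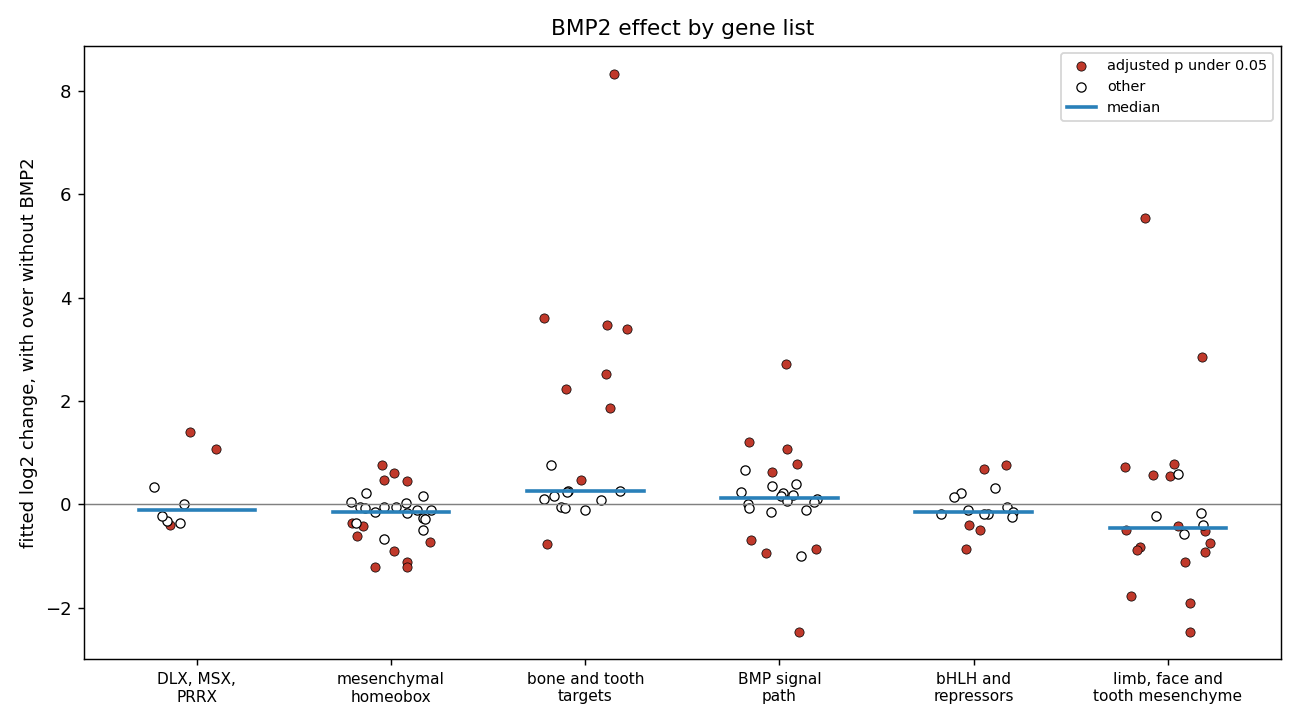
Fitted log2 change with BMP2 over without it (vertical axis) for the 8 members measured and for each gene of 5 further lists (horizontal axis), with filled points for an adjusted p under 0.05 in limma and blue bars for the median. The members span -0.40 to 1.40, and the medians run from -0.45 in limb, face and tooth mesenchyme to 0.26 in bone and tooth targets.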

How the data were processed

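Total RNA from 4 cultures was labelled with Cy3 and hybridised to 1 single-colour Agilent array each. The deposited scanner files give an intensity per spot, and the submitters' processing notes name Agilent Feature Extraction 10.7.3.1. Per the file headers, local background correction was off: a fitted spatial surface (56.9 to 67.0 units) was subtracted, a multiplicative trend was removed, and surrogates stand for signals not above background. The authors' value table is unscaled, and 99.5% of its intensity values lay within 0.1% of the mean over a probe's spots.

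The processed signal was put on the log2 scale and each array's 75th percentile over non-control spots was subtracted, with 109 to 144 outlier spots per array left out. The intensities printed are the deposited ones, before scaling; the 75th percentiles were 743 with both, 725 with BMP2, 724 with LOXL2 and 711 untreated. Each member probe has 1 spot per array. Probes well above background on at least 2 arrays were kept, 26762 of 55681 probes were named through RefSeq (GRCm38.p6), and the brightest probe represented a gene. limma 3.58.1 under R 4.3.3 fitted BMP2 and LOXL2 as additive terms, two-sided. The fit was tested on simulated data. The standard errors cover these arrays only, and the number of arrays limits their precision. All members were described with every probe; from each further list up to 4 called genes with the largest rise and up to 4 with the largest fall were named, with a few fixed genes such as Runx2, Sp7, Alx4 and Dlx4. Some genes that this rule names are not reported here. The likeness rule took the called members with the largest rise and fall and their 3 nearest genes. The count over all homeobox genes, Lhx2 and the names of called neighbours, HOX genes and cell markers were added after the values were seen. The members and lists were chosen with earlier results of these data known. The planned comparison of homeodomain sequences was not run. Alternatives were normexp background correction with an offset of 50, quantile and median scaling, other filters, probe rules and gene names, trend and robust variance, the value table and single pairs of arrays.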

Additional observations from a re-analysis of the deposited data

Results flagged for a closer look

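Between the pairs of arrays, some members moved in opposite directions, and the difference was not tested, since each treatment has 1 array. The BMP2 difference of Prrx2 was 0.0618 under LOXL2 and -0.0376 without it, a gap of 0.0994 on the log2 scale. For the LOXL2 difference, Prrx2 had 0.0625 with BMP2 present and -0.0369 without BMP2, with the same gap. Msx1 had 0.0474 with BMP2 present and -0.0482 without BMP2, a gap of 0.0956. Dlx2 had 0.238 with BMP2 present and -0.0507 without BMP2, a gap of 0.289, the widest of the 4 results here. Over all genes 52.8% had a gap as wide as that of Prrx2, 54.1% as wide as that of Msx1 and 19.6% as wide as that of Dlx2.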

How the results depend on the processing

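The BMP2 rise of Dlx5 ran from 1.28 to 1.42 and that of Dlx2 from 1.01 to 1.09 over the alternative fits, and both were called in each fit except with no filter on dim probes, where 0 of all genes passed in limma (9259 at an unadjusted p under 0.05, smallest adjusted p 0.09), and so 0 members were called higher and 0 lower. Of 24041 genes, 4883 were called for BMP2 here, 9086 with normexp and 10389 with trend and robust variance. Quantile normalization called 4121 of them and the mean of probes 4107. With the filter on all 4 arrays 6386 of 22617 genes were called, and with every probe as its own feature 4060 of 33976. Rises made up 46.4% to 56.3% of the calls in these settings. The counts of members called are to be read beside these totals. Members called lower numbered 1 here, 4 with normexp and also 4 with trend and robust variance, 3 with the filter on all 4 arrays, 2 with quantile normalization and 0 with every probe as its own feature or the mean of probes; Prrx1 was lost without the filter and in both of these probe settings. For Dlx6 the adjusted p was 0.0391 with the filter on all 4 arrays and 0.0380 with trend and robust variance. In the further lists, no filter left 0 genes called. The BMP path had 8 genes higher, not 5, with normexp and with trend and robust variance, and 2 lower, not 4, with the mean of probes. The helix-loop-helix list had 7 lower, not 3, with normexp and with trend and robust variance, and 5 higher, not 2, with trend and robust variance, which also gave 2 bone and tooth genes lower, not 1. The narrower homeobox list had 2 higher, not 4, with every probe as its own feature. The causes of these shifts were not tested. The BMP2 change of Prrx2 turned to -0.153 with quantile normalization. For LOXL2, the change of Msx1 turned to 0.0186 with normexp, 0.00169 with median centring and 0.00114 with the value table, and that of Prrx1 to 0.0806 for its second probe and 0.0124 with the mean of probes. With trend and robust variance 14 genes were called for LOXL2, 0 of them members. The median BMP2 change of all genes lay between 0.000876 and 0.0595 in the alternatives run. Signal over background limits Dlx1, and 1 array per treatment limits every value. No paired analysis was possible because each treatment has 1 array and the labels give no replicate numbers.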
